A study of Mus musculus with 6 samples.

Results

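The proneural transcription factors and their companion Insm1 are 8 genes, Atoh1, Neurog1, Neurog2, Nhlh1, Nhlh2, Neurod1, Neurod2 and Insm1, of 43629 in the deposited table, and each was found there once by its symbol. They were followed in 3 libraries of medulloblastoma RNA from mice of genotype Math1-Cre SmoM2.c/wt and 3 of cerebellum RNA from mice of genotype SmoM2.c/wt. Mice of the second genotype carry the SmoM2 allele without the Cre driver and are littermate controls, named WT in their titles. Below, a numbered tumor or control is 1 library. SmoM2 encodes a Smoothened protein that signals without ligand and so keeps the Hedgehog pathway on. Math1 is the older name of Atoh1, so the Cre driver that turns the allele on uses regulatory sequence of 1 of the genes studied here, and any reads it might add to the Atoh1 count were not told apart. All mice were female, on the C57BL/6 background and sampled at postnatal day 35. Whether the 3 libraries of a group came from different mice is not stated, and the p-values therefore reflect the spread among these libraries alone, part of which may be technical.

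Basic helix-loop-helix (bHLH) factors bind DNA as dimers at a short site called the E-box, usually with a broadly expressed E protein as partner. The proneural and neuronal members of the family act in sequence as a progenitor becomes a neuron. In the cerebellum Atoh1 defines the progenitors of granule neurons in the rhombic lip and external granular layer, and Neurod1 takes over as these cells leave the cycle and mature. Nhlh1 and Nhlh2 are bHLH factors of newborn neurons. Neurog1 and Neurog2 act in the ventricular zone, the source of the inhibitory neurons. Insm1 is a zinc finger repressor of neuronal progenitors and newborn neurons and is not a bHLH protein.

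The libraries held between 44902217 and 69550200 reads. Levels are normalized counts, that is reads divided by 1 size factor per library. None of 10 markers of mature granule neurons and of 7 of Purkinje cells was at 0 in all libraries of a group. Summed over the list, the granule markers reached between 47587 and 62549 in the tumors and between 295369 and 340750.0 in the controls, and the Purkinje markers between 39195 and 76999 in the tumors and between 467893 and 475038 in the controls. Both sums were lower in every tumor than in every control. Tumor library 3 had the highest sum of both lists among the tumors, and the lowest sum of 8 choroid plexus markers (2502, against 23872 and 19729 in tumor libraries 1 and 2, and between 72641 and 126957 in the controls). In bulk RNA, fewer cells of a type and less RNA per cell cannot be told apart.

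Between tumor and control, 4 of the 8 genes were higher, 3 were lower and 1, Neurog1, was too low to test. Atoh1, Nhlh1, Insm1 and Nhlh2 rose, while Neurod1, Neurod2 and Neurog2 fell. For each of the 7 genes tested, the values of the 2 groups did not overlap. The call was made with limma on log2(value + 1) with Benjamini-Hochberg adjustment over 22117 genes, of which 62.1% were called, 30.6% higher and 31.5% lower, at an adjusted p under 0.05. All tumors lay above all controls for 33.2% of these genes and below them for 34.5%. A call by itself was therefore common, and the members are described below by the size of their changes. The median log2 fold change was 3.29 over the 7 tested members, which went both ways, and -0.02 over all genes tested. The members' median was 1.35 without the filter on low values and 5.63 where more than 1 CPM was required, since Neurog1 enters it in one case and Neurog2 leaves it in the other.

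**Figure D1:**
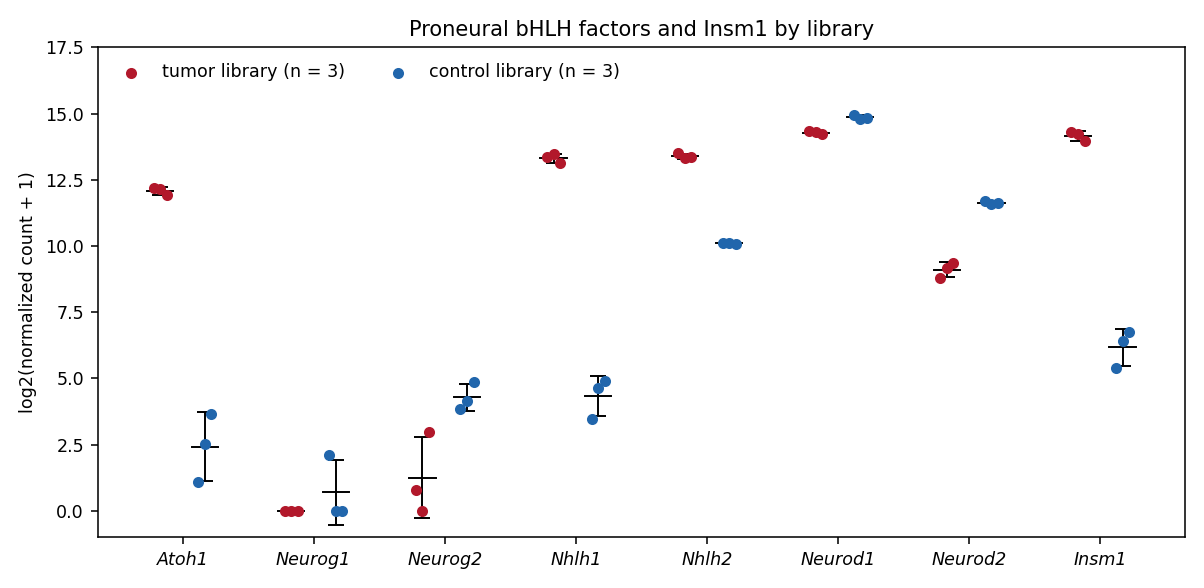
Each point is 1 library, with log2(normalized count + 1) on the vertical axis, tumor in red left of control in blue; lines give the mean and SD of 3 libraries on that scale. Atoh1, Nhlh1 and Insm1 stand far above the controls, Nhlh2 by less, and Neurod1, Neurod2 and Neurog2 below them.

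Atoh1 had 4664, 4541 and 3879 normalized counts in tumor libraries 1, 2 and 3, against 1.12, 4.76 and 11.8 in control libraries 1, 2 and 3. The controls together held 16 reads of it, 11 of them in library 3, and the tumors 15207. Every tumor was far above every control, and control libraries 1 and 3 stood furthest apart. Its log2 fold change was 9.66 ± 0.52 (SE, n = 3 each; limma adjusted p = 2.11e-07). On pooled reads the level in tumors was 734 times that in controls, with an exact 95% interval of 452 to 1285 that covers counting error only. The log2 fold change moved to 8.99 without control replicate 1 and to 10.28 without control replicate 3. Atoh1 (ENSMUSG00000073043) is a single-exon gene on the plus strand of chromosome 6 at 64729146 to 64731233 in mm10.

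The promoter of Atoh1 is shown because its transcript had the largest rise of the group. The window holds 300 bases around the RefSeq start, most of them before it (build GRCm38.p6, plus strand, chr6:64728875-64729174). In this and the next promoters, E-boxes, searched as CANNTG, a form that is its own reverse complement and so covers both strands, are in capitals. Of all 32851 promoter windows of the same length, 72.3% held at least 1 E-box, and the median was 1. This window of Atoh1 held none.
Atoh1: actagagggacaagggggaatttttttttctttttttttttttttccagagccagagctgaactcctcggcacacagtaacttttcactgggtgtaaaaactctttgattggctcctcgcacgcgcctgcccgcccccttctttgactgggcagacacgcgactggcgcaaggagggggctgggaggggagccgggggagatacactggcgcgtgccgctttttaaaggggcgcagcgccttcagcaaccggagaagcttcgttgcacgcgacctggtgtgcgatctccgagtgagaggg

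The 2 Nhlh genes both rose, but by very different amounts. Nhlh1 had 10489, 11273 and 8881 normalized counts in tumors 1, 2 and 3, against 10.1, 23.8 and 28.9 in controls 1, 2 and 3. Its tumor mean was 10214 ± 1219 and its control mean 20.9 ± 9.73 (SD, n = 3 each), with a log2 fold change of 8.98 ± 0.32 (SE) and a limma adjusted p of 1.51e-08. Nhlh2 had 11551, 10125 and 10453 normalized counts in tumors 1, 2 and 3, against 1100, 1099 and 1079 in controls 1, 2 and 3. No tumor overlapped a control for either gene, and the control values of Nhlh2 spread over a 1.02-fold range, while those of Nhlh1 spread over a 2.87-fold range. Nhlh2 had a log2 fold change of 3.29 ± 0.08 (SE, limma adjusted p = 1.84e-09), or 9.78-fold.

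The fold change of Nhlh1 was larger than that of its paralog, which was well detected in every control library. The log2 ratio of Nhlh1 to Nhlh2 within a library was -0.07 ± 0.20 in tumors and -5.76 ± 0.77 in controls (SD, n = 3 each). The difference in this ratio, tumor minus control, was 5.69, and every tumor exceeded every control (exact two-sided permutation test, p = 0.1, which is the smallest that 3 against 3 libraries can give). In tumors the counts of the pair were near parity, while in controls nearly all belonged to Nhlh2. These counts are not corrected for length, and Nhlh2 has 5.417 kb of exon against 2.464 kb for Nhlh1. Per kilobase of exon, the tumor means were 4145 for Nhlh1 and 1977 for Nhlh2, and the control means 8.48 and 202. Nhlh1 (ENSMUSG00000051251) lies on the minus strand of chromosome 1 at 172052292 to 172057573 and Nhlh2 (ENSMUSG00000048540) on the plus strand of chromosome 3 at 102010145 to 102015492 in mm10.

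The promoters of the pair are shown because the paralogs rose by such different amounts. In RefSeq (build GRCm38.p6) that of Nhlh1 lies on the minus strand at chr1:172057547-172057846 and that of Nhlh2 on the plus strand at chr3:102009895-102010194. Nhlh1 had 2 E-boxes and Nhlh2 had 4, in capitals. Both held the form CAGATG, at -203 from the start in Nhlh1 and at -127 in Nhlh2, which 17.2% of all windows held on either strand. Nhlh2 also held CAGCTG at 45 bases into the transcript, a form present in 16.3% of windows.
Nhlh1: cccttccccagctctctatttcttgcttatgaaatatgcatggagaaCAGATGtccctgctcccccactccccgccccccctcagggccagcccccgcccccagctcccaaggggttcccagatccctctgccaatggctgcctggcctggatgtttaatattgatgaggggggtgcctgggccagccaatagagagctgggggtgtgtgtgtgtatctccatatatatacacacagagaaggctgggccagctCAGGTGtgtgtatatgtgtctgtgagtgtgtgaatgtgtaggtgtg
Nhlh2: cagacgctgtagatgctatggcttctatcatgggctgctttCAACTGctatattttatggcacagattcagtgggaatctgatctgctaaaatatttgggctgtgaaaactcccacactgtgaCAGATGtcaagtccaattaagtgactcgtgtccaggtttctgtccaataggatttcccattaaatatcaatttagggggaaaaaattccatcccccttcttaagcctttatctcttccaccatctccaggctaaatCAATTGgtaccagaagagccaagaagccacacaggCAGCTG

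Per kilobase of exon, Insm1 had the highest tumor level of the genes that rose. It had 20318, 19048 and 15823 normalized counts in tumors 1, 2 and 3, against 41.3, 83.2 and 105.9 in controls 1, 2 and 3. All tumors were far above all controls, and the lowest tumor was library 3. The log2 fold change was 7.98 ± 0.28 (SE, n = 3 each; limma adjusted p = 1.58e-08). Insm1 (ENSMUSG00000068154) is a single-exon gene on the plus strand of chromosome 2 at 146221921 to 146225020 in mm10.

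The Neurod genes, which act later, went the other way. Neurod1 had 20577, 20120 and 19061 normalized counts in tumors 1, 2 and 3, against 31459, 28747 and 29386 in controls 1, 2 and 3. The groups did not overlap and each was tight, with a coefficient of variation of 3.91% in tumors and 4.75% in controls. The log2 fold change was -0.58 ± 0.08 (SE, limma adjusted p = 0.000141). Neurod2, a paralog that also sustains granule neurons, had 441.2, 579.3 and 656.2 normalized counts in tumors 1, 2 and 3, against 3338, 3088 and 3125 in controls 1, 2 and 3. It fell by 2.53 ± 0.14 on the log2 scale (SE, limma adjusted p = 2.51e-07), and tumor library 1 was the lowest.

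The log2 ratio of Neurod2 to Neurod1 was -5.17 ± 0.34 in tumors and -3.23 ± 0.01 in controls (SD, n = 3 each). The difference, tumor minus control, was -1.94 (exact two-sided permutation test, p = 0.1, the smallest possible here). Neurod1 (ENSMUSG00000034701) lies on the minus strand of chromosome 2 at 79452521 to 79456751. Its locus overlaps Cerkl on the same strand and the noncoding gene Gm26755 on the other strand. Cerkl had 231.1 to 327.6 normalized counts in tumors and 487.6 to 598.0 in controls, and Gm26755 had at most 2.83 in tumors and 29.7 in controls, so both were small beside Neurod1. The sources used here do not state how shared reads were assigned. Neurod2 (ENSMUSG00000038255) lies on the minus strand of chromosome 11 at 98325415 to 98329648.

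The promoters of the Neurod pair are shown because these paralogs fell to different degrees. Both are on the minus strand in RefSeq (build GRCm38.p6), at chr2:79456587-79456886 for Neurod1 and chr11:98329596-98329895 for Neurod2. Neurod1 had 1 E-box and Neurod2 had 3, in capitals. Both held the form CATATG, at -242 in Neurod1 and at -17 in Neurod2, which 3.91% of all windows held. None of the 7 members with a window held the GLI site GACCACCCA on either strand, a motif found in 0.253% of all windows.
Neurod1: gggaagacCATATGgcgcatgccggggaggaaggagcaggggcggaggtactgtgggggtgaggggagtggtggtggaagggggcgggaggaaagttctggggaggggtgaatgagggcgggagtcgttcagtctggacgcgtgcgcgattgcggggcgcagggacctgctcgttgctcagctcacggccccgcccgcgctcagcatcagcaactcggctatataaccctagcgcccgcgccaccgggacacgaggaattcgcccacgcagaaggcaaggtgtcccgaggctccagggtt
Neurod2: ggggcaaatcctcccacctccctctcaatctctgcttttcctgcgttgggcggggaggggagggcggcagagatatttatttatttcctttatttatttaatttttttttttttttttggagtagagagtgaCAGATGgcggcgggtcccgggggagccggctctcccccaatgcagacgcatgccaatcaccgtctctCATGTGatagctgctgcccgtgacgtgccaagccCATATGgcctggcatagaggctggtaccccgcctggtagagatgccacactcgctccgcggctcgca

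Both Neurod genes are also expressed in mature granule neurons, and they were set beside markers of those cells. As a percentage of the control mean, Neurod1 was at 68.9, 67.4 and 63.8 in tumor libraries 1, 2 and 3. Neurod2 was at 13.9, 18.2 and 20.6 percent in the same libraries. The median over the 10 mature granule markers was 10.6, 12.8 and 17.2 percent, and over the 7 Purkinje markers 8.33, 8.63 and 15.8 percent. Neurod2 and the marker medians were all lowest in tumor 1 and highest in tumor 3, while Neurod1 was lowest in tumor 3. Among the granule markers, Gabra6, a GABA receptor subunit gene of mature granule cells, was at 5.85, 4.67 and 10.8 percent. Slc17a7, a vesicular glutamate transporter gene, was at 6.57, 8.99 and 12.6 percent. The exceptions were Rbfox3, which encodes NeuN, at 44.7 to 59.3 percent, and Reln, which encodes the secreted protein reelin, at 110.0 to 135.0 percent. The part of residual mature neurons in the tumor level of either Neurod gene was not tested.

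**Figure D2:**
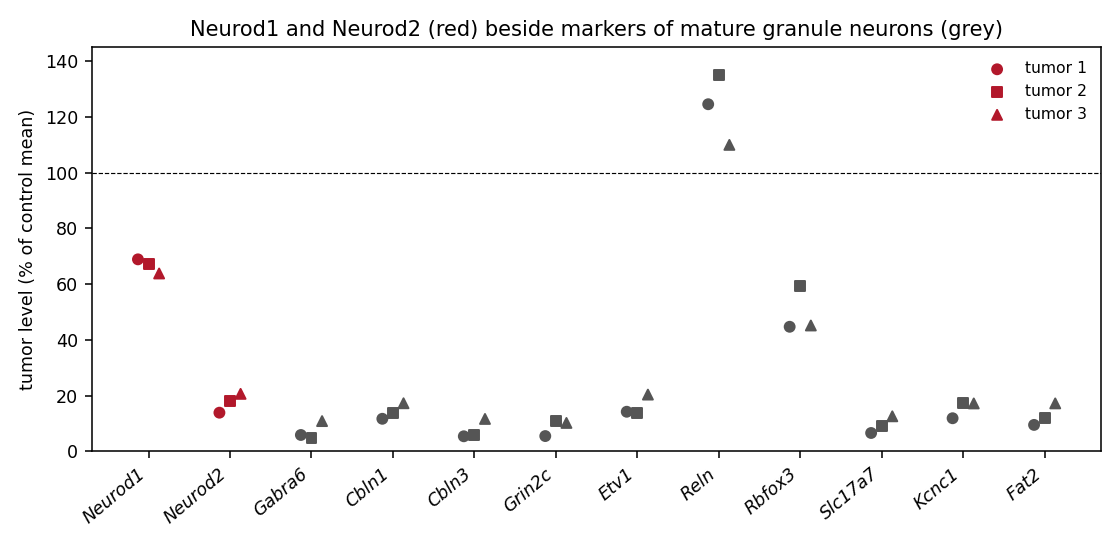
Level in each tumor library as a percentage of the control mean (vertical axis; the dashed line is 100) for Neurod1 and Neurod2 in red and 10 markers of mature granule neurons in grey. Neurod1 lies between 63.8 and 68.9 percent, while Neurod2 lies at 13.9 to 20.6 percent, near most of the markers.

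The neurogenins were at or near the limit of detection. Neurog2 had 0.722, 0 and 6.89 normalized counts in tumors 1, 2 and 3, against 13.4, 16.6 and 27.8 in controls 1, 2 and 3. These values rest on 8 reads in all tumors and 52 in all controls, and 7 of the 8 tumor reads were in library 3. It fell by 3.02 ± 0.76 on the log2 scale (SE, limma adjusted p = 0.00616), and on pooled reads the tumor level was 0.119 of the control level (exact 95% interval 0.0487 to 0.252, counting error only). The log2 fold change was -3.89 without tumor replicate 3, -2.40 without tumor replicate 2 and -1.75 with a pseudocount of 5. Neurog1 had 0 reads in the tumors and 3 in the controls, all in control library 1. Without the filter on low values its limma adjusted p was 0.391. At 3 reads over the group, a count of 0 in all tumors allows a level of up to 0.867 normalized counts, and the exact 95% Poisson upper limit is 1.07, so no difference was detectable at this depth. Neurog2 (ENSMUSG00000027967) lies on chromosome 3 at 127633136 to 127635631 and Neurog1 (ENSMUSG00000048904) on chromosome 13 at 56250505 to 56252163 in mm10. Other genes of the ventricular zone lineage were in part detected. Ptf1a, which specifies its inhibitory neurons, had at most 1.97 normalized counts in any tumor and 3.21 in any control.

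Levels of different genes were compared per kilobase of exon, with exon lengths from GENCODE M21 on the same build. In tumors Neurod1 was the highest of the bHLH genes at 7299 ± 285 normalized counts per kb, ahead of Nhlh1 at 4145 ± 495 (SD, n = 3). Atoh1 and Nhlh2 came next at 2056 ± 199 and 1977 ± 138, a difference within their spread, and Neurod2 was at 178 ± 34.7. Insm1, at 5934 ± 748 per kb, ranked between Neurod1 and Nhlh1. In controls Neurod1 was at 10943 ± 519 per kb, Neurod2 at 1013 ± 42.9 and Nhlh2 at 202 ± 2.17. Insm1 followed at 24.8 ± 10.6 per kb, then Neurog2 and Nhlh1 at 8.66 ± 3.39 and 8.48 ± 3.95, which did not differ beyond their spread, and Atoh1 at 2.77 ± 2.55.

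The summed level of the 7 bHLH genes per kb was 15657 ± 952 in tumors and 12179 ± 557 in controls (SD, n = 3 each). Neurod1 made up 45.7 to 48.0 percent of this sum in the tumors and 89.7 to 90.0 percent in the controls. Nhlh1 made up 24.8 to 28.3 percent in tumors and at most 0.0977 percent in controls. Atoh1 made up 12.6 to 13.5 percent in tumors and at most 0.0462 percent in controls. Nhlh2 held 11.6 to 13.3 percent in tumors and 1.59 to 1.73 percent in controls. Neurod2 held 0.863 to 1.43 percent in tumors and 8.30 to 8.37 percent in controls. For each of these 5 genes the shares of the groups did not overlap.

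**Figure D3:**
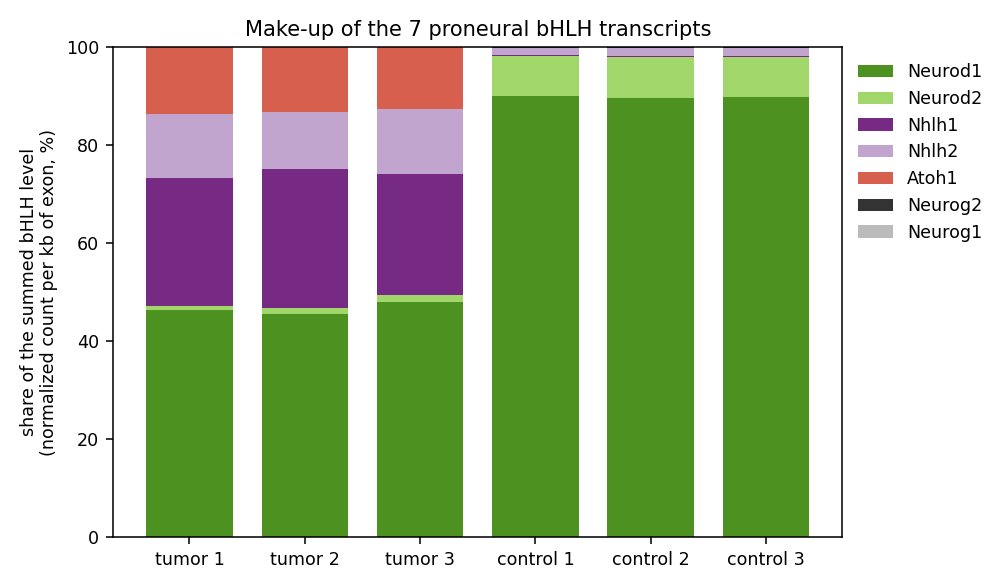
Stacked bars give each gene's share, in percent, of the summed normalized count per kb of exon of the 7 bHLH genes in each library, tumors on the left. Neurod1 fills about 90 percent of the control bars, and in the tumors Nhlh1, Atoh1 and Nhlh2 together take somewhat more room than Neurod1.

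Ratios to Neurod1 within a library depend little on the scaling between libraries. The log2 ratio of Atoh1 to Neurod1 was -2.19 ± 0.09 in tumors and -12.44 ± 1.35 in controls, a difference of 10.24. That of Nhlh1 to Neurod1 was -0.97 ± 0.13 in tumors and -10.53 ± 0.82 in controls, a difference of 9.56 (SD, n = 3 each). In both, every tumor was above every control, with an exact two-sided permutation p of 0.1, the smallest possible, and 4 such ratios were computed.

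Among the controls, Atoh1, Nhlh1 and Insm1 ranked the 3 libraries in the same order. As a percentage of the tumor mean, Atoh1 was at 0.0256, 0.109 and 0.270 in control libraries 1, 2 and 3. Nhlh1 was at 0.0984, 0.233 and 0.283 percent in the same libraries, and Insm1 at 0.225, 0.452 and 0.575 percent. Control library 1 was the lowest and control library 3 the highest for all of these, as for Neurog2. Igfbpl1 and Draxin, markers of newborn granule neurons picked here for their likeness to Nhlh1, had the same order. The full list held 9 such markers, of which 7 were higher in tumors, 1 was lower and 1 did not pass. Over all genes tested, 30.6% were higher and 31.5% lower. Igfbpl1 was at 0.123, 0.240 and 0.354 percent and Draxin at 0.122, 0.217 and 0.343 percent. Their likeness was measured over these same libraries, so the shared order follows in part from the pick. Top2a, among the genes nearest to Insm1 over these libraries, also had this order, at 0.371, 0.419 and 0.531 percent. Not every gene high in tumors shared this order: the proliferation gene Mki67 was at 0.459, 0.345 and 0.719 percent. Nhlh2 was at 10.3, 10.3 and 10.1 percent. Among the tumors, library 3 was the lowest for Atoh1, Nhlh1, Insm1 and Neurod1.

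By distance between profiles over the 6 libraries (log2 scale, each gene centred on its mean, 13577 genes compared), the genes most like Nhlh1 were Draxin, at 0.353, which encodes a secreted axon guidance protein, Igfbpl1 at 0.400 and Myod1, the muscle regulator and itself a bHLH gene, at 0.675. Atoh1 was most like Myod1 at 1.06, then Nhlh1 at 1.198 and Hsd11b2, which encodes an enzyme that inactivates glucocorticoids, at 1.26. Insm1 was most like Fam64a at 0.410, Ska1 at 0.645 and Top2a at 0.758, of which Ska1 and Top2a act in mitosis. The genes nearest to Nhlh2 were Nasp, a histone chaperone gene, at 0.143, Atad2 at 0.156 and Npm3 at 0.164. Those nearest to Neurod1 were Hint2, Lipo1 and Wdyhv1, at 0.0344 to 0.0561, and those nearest to Neurod2 were Rps6ka1, Trpc1 and Map3k9, at 0.153 to 0.164. For Neurog2 they were Rasgrf2, Mobp and Cyp2j12, at 0.903 to 0.987. These distances reflect mostly the size of the difference between 2 groups and describe these libraries only.

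The E proteins, the dimer partners of the bHLH members, all rose, in 3 of 3 genes with a median log2 fold change of 1.38. The list is short, and 30.6% of all genes tested were also called higher. Tcf3 averaged 3153 ± 836 in tumors and 474.6 ± 16.8 in controls (SD, n = 3 each; log2 fold change 2.70 ± 0.17 SE). Tcf4 averaged 54067 ± 2869 in tumors and 20786 ± 928 in controls, and Tcf12 averaged 14732 ± 1008 in tumors and 7130 ± 188 in controls. By limma their adjusted p-values ran from 5.16e-07 to 2.10e-06.

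The Id, Hes and Hey families, which include factors that oppose proneural activity, did not move as a group. Of 11 Id, Hes and Hey genes, 6 rose, 4 fell and 1 did not pass, with a median log2 fold change of 1.01. Among all genes tested, 30.6% were higher and 31.5% lower. Hes5, an effector of Notch, had the largest rise, with 212.3, 334.5 and 155.4 normalized counts in tumors 1, 2 and 3, against 8.93, 10.7 and 20.3 in controls 1, 2 and 3. Hey1, a related repressor gene, rose 4.82-fold to 11781 ± 1955, against 2425 ± 142 in controls. The largest falls were those of Hes3, with a log2 fold change of -2.42 ± 0.43 (SE), and Id4, whose product sequesters bHLH partners, which fell by 1.81 ± 0.11. Hes3 was at 51.3, 138.9 and 181.0 normalized counts in tumors 1, 2 and 3, and its log2 fold change was -1.88 without tumor replicate 1.

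Of 19 other tissue bHLH genes, 14 could be tested, of which 6 rose, 3 fell and 5 did not pass. The shares over all genes tested were 30.6% higher and 31.5% lower. The list's median log2 fold change was 0.88, or 0.32 without the filter on low values. Olig3, a factor of rhombic lip progenitors, had 392.1, 442.3 and 265.6 normalized counts in tumors 1, 2 and 3, against 0, 0 and 4.28 in controls 1, 2 and 3. With 4 control reads, its pooled ratio of 247 has an exact 95% interval of 96.4 to 909 for counting error only. Neurod4, a paralog known from retina and hindbrain, had 1148, 882.6 and 1350 normalized counts in tumors 1, 2 and 3, against 4.47, 5.94 and 9.62 in controls 1, 2 and 3. Neurod6, a paralog known from forebrain excitatory neurons, rose 6.09-fold to 2881 ± 163, against 471.9 ± 23.8 in controls. Of the other forebrain markers, Emx1 was at 0 in all tumors and had at most 3.21 normalized counts in any control. The largest falls were those of Atoh7, a paralog of Atoh1 known from retinal ganglion cells (log2 fold change -4.03 ± 0.51 SE), and Atoh8 (-0.97 ± 0.25). The Neurod paralogs therefore differed in direction, with Neurod4 and Neurod6 higher and Neurod1 and Neurod2 lower, under every scaling tried.

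**Figure D4:**
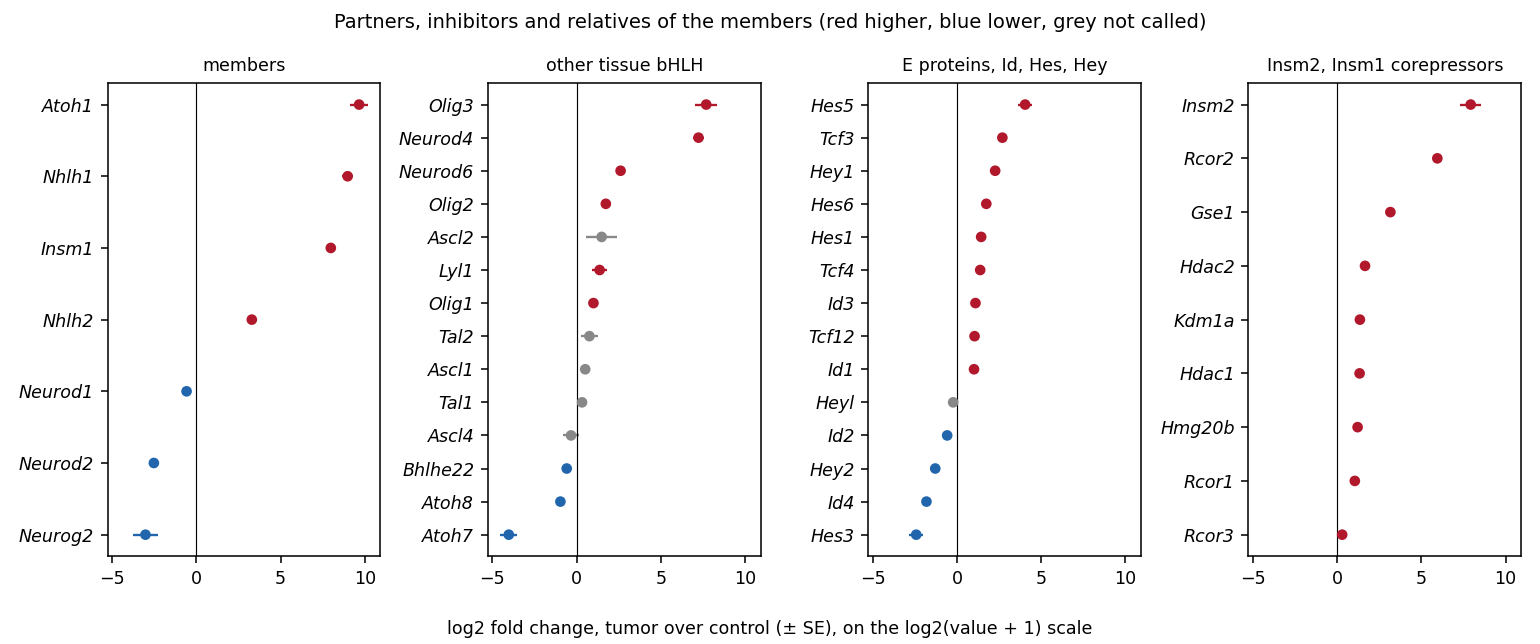
Points give the log2 fold change of tumor over control and bars its SE from limma, for the members, other tissue bHLH genes, E proteins with Id, Hes and Hey genes, and 9 of the 10 Insm1 corepressor genes, with red for higher, blue for lower and grey for not called. The E proteins and the 9 corepressor genes shown all lie right of 0, while the Id, Hes and Hey genes and the other bHLH genes fall on both sides.

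Genes tied to Atoh1 in mouse were mixed. For this list and the next, the shares over all genes tested were 30.6% higher and 31.5% lower. Of 9 genes reported as its targets or as genes of its lineages, 3 rose, 3 fell and 1 did not pass, while 2 could not be tested. The median log2 fold change was -0.14 while the mean was 1.43. Without the filter on low values the median was 0.65. Lhx2, a LIM homeobox gene, had the largest rise, with 793.7, 729.5 and 527.3 normalized counts in tumors 1, 2 and 3, against 3.35, 10.7 and 2.14 in controls 1, 2 and 3. Barhl1, a homeobox gene of granule progenitors, rose 29.9-fold. Selm, a selenoprotein gene, fell 4.96-fold, and Lhx9 had a log2 fold change of -2.03, with an adjusted p of 0.0199 that became 0.0776 without control replicate 2 and 0.0663 without control replicate 3 (limma). Lhx9 had 81.6, 9.45 and 40.3 normalized counts in tumors 1, 2 and 3, against 93.8, 170.0 and 147.6 in controls 1, 2 and 3, and its log2 fold change was -1.20 without tumor replicate 2. Of 9 genes known to act on Atoh1, 4 rose, 2 fell, 2 did not pass and 1 could not be tested, with a median of 0.26, or 0.13 without that filter or with more than 1 CPM required. Prdm13, a repressor gene, had 342.3, 17.95 and 385.7 normalized counts in tumors 1, 2 and 3, against 0, 0 and 3.21 in controls, so tumor library 2 stood well below the others. Its pooled ratio of 228 rests on 3 control reads, with an exact interval of 77.7 to 1107. Notch2 rose by 0.56 on the log2 scale. Bmp4 and Bmp7, both bone morphogenetic protein genes, had log2 fold changes of -0.76 and -0.55, and each lost its call in some of the alternatives tried. Huwe1, whose ubiquitin ligase degrades Atoh1 protein, rose 1.31-fold.

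The partners of Insm1 all rose. Insm1 represses through a short N-terminal motif that recruits the demethylase Kdm1a with Rcor and Hdac proteins. All 10 genes of this group, which includes the paralog Insm2, were called higher, a call made for 30.6% of all genes tested. The group had a median log2 fold change of 1.34. Insm2 had 516.3, 478.2 and 262.7 normalized counts in tumors 1, 2 and 3, against 0, 3.57 and 0 in controls 1, 2 and 3. With 3 control reads, its pooled ratio of 383 has an exact 95% interval of 131 to 1860. Rcor2, a corepressor gene, had 6547, 7306 and 5052 normalized counts in tumors 1, 2 and 3, against 75.9, 111.8 and 118.7 in controls 1, 2 and 3 (log2 fold change 5.94 ± 0.19 SE, limma adjusted p = 9.53e-09). Its paralogs changed less, Rcor1 by 1.04 and Rcor3 by 0.29 on the log2 scale. Rcor3 lost its call in 5 of 16 alternatives, and 8 to 10 of the 10 were called higher over the alternatives.

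The authors' deposited table of all genes gave folds of tumor over control of 742 for Atoh1, 489 for Nhlh1, 239.5 for Insm1, 9.80 for Nhlh2, 0.667 for Neurod1, 0.176 for Neurod2 and 0.132 for Neurog2. A shorter list, also the authors' deposited table, held 5 of the 8 genes and gave log2 folds of 8.11 for Atoh1, 7.94 for Nhlh1, 7.35 for Insm1, 3.30 for Nhlh2 and -2.47 for Neurod2. Neurod1 was not among its 2654 genes.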

How the data were processed

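Per the labels' protocols, RNA was isolated by TRIzol, cleaned on columns and made into TruSeq libraries. Sample titles give the groups and replicate numbers. Per the submitters' processing notes the build was mm10 and the tools were edgeR, featureCounts, FastQC and Bowtie2 2.2.4, in no stated order, and nothing used here gives the counting options or annotation. For every gene the authors deposited 1 signal per library. The values showed it to be a read count over 1 size factor, since 100% were whole multiples of 1 read (tolerance 1e-06 reads). The deposited fold, or ratio, of group means and the deposited p-value and FDR columns, and the log2 fold in the authors' shorter deposited list, entered no test made here.

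Genes were kept if their value exceeded 1 in 3 or more libraries, which left 22117. Their log2(value + 1) was tested in limma 3.58.1 (R 4.3.3, trend option), with Benjamini-Hochberg adjustment over all of them. Fold changes are differences of group means on this scale, and for genes with few reads they depend on the pseudocount. The quasi-likelihood test of edgeR 4.0.16, run with TMM factors on whole reads recovered from the values, made 6800 calls of higher and 6611 of lower. The fit was tested on simulated data. No 2 libraries were alike within sampling noise. Chi-square over its degrees of freedom lay between 41.6 and 67.6 for pairs of tumors, between 10.9 and 13.7 for pairs of controls and between 791 and 1080 across groups.

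The 8 genes and the other lists were chosen with earlier results of these data known. All 8 are named. From each list the called genes with the 2 largest and 2 smallest log2 fold changes are named, and for each of the 8 with a mean over 10 the 3 genes nearest by Euclidean distance, among named genes with a mean of at least 50 in the higher group. Neurod6, Huwe1, Rcor1, Rbfox3, Reln, Gabra6, Slc17a7, Emx1 and Ptf1a were added after their values were seen. A few list genes are not reported here by name. Promoter windows come from RefSeq (GRCm38.p6), which matched 7 of the 8 genes. Intervals and floors of 3 counts cover counting error only.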

Additional observations from a re-analysis of the deposited data

How the results depend on the processing

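The 16 alternatives were other pseudocounts, scalings and filters, edgeR, DESeq2 1.42.0, a replicate block and the removal of each library in turn. The 4 higher and 3 lower members kept their direction and call in every alternative in which they were tested, and Neurog2 was not tested where more than 1 CPM was required, which left 2 lower. Over the alternatives the log2 fold change ran from 8.77 to 10.28 for Atoh1, 8.55 to 9.26 for Nhlh1, 7.59 to 8.26 for Insm1, 3.21 to 3.39 for Nhlh2, -0.67 to -0.49 for Neurod1, -2.65 to -2.37 for Neurod2 and -3.89 to -1.75 for Neurog2, whose adjusted p ran from 0.000425 to 0.0317. Over all genes, 5787 to 7369 were higher and 5622 to 7449 lower. Scaling moved the median of all genes to at most 0.07 (library totals) and at least -0.10 (upper quartile), from -0.02.

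The replicate numbers did not pair the samples: the correlation of deviations from the group means was 0.02, -0.05 and -0.01 for numbers 1, 2 and 3. With the replicate block 6744 genes were higher and 6943 lower, with 4 members higher and 3 lower, and the exact p of the 4 ratios was 0.25, the smallest that 3 pairs can give. Those 4 ratios kept their direction in all 9 alternatives each. Depth limits Atoh1 and Nhlh1 in controls and both neurogenins in all libraries.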

Other observations

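Other genes that share the repressor motif of Insm1 were mixed, and the secretory genes with which Insm1 is often found in neuroendocrine cells were lower. Of 6 further zinc finger genes with this motif, 5 were tested, of which 1 rose and 1 fell. Among all genes tested, 30.6% were higher and 31.5% lower. Scrt2, a repressor gene of newborn neurons, rose 6.53-fold to 2176 ± 354 in tumors, against 334.3 ± 65.8 in controls (SD, n = 3 each). Its paralog Scrt1 had 1279, 2096 and 1560 normalized counts in tumors 1, 2 and 3, against 2065, 2264 and 2134 in controls 1, 2 and 3, so the groups overlapped. The limma adjusted p of Scrt1 was 0.0417, and the call was lost in 8 of 16 alternatives.

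All 7 neuroendocrine secretory genes were lower, and their median log2 fold change was -1.62, where 31.5% of all genes tested were lower. Markers of mature neurons were lower in the same tumors, with medians of -2.91 for 10 mature granule genes, -3.15 for 7 Purkinje genes and -2.51 for 5 unipolar brush cell genes, and their part in these falls was not tested. Scg2, which encodes a granin of dense-core vesicles, averaged 1418 ± 507 in tumors and 9718 ± 761 in controls. Chgb, another granin gene, averaged 5957 ± 784 in tumors and 32426 ± 1850 in controls. The smallest falls were those of Scg3 (log2 fold change -0.49) and Scg5 (-1.08), which also act in that pathway.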
